A study of Mus musculus with 6 samples.

Results

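YAP (Yap1), TAZ (Wwtr1), the TEAD factors Tead1, Tead2 and Tead3, and 5 genes tied to them as targets or regulators were examined in primary stromal cells from mouse fat cultured on collagen with or without bound aortic carboxypeptidase-like protein (ACLP). The rows of the deposited count table whose symbol was Yap1, Wwtr1, Tead1, Tead2, Tead3, Ankrd1, Amotl2, Ajuba, Lats2 or Axl were taken, which gave 10 of 56748 genes, and all 10 had enough counts to be tested. Col1-ACLP libraries (n = 3) came from cells on type I collagen that had polymerized with 30 nM recombinant ACLP, a secreted protein that binds collagen. Col1 libraries (n = 3) came from cells on the same collagen with 0 nM ACLP. In both groups the cells were the stromal vascular fraction, a mixture of cells, of gonadal white fat from wild-type C57BL/6 mice of both sexes aged 12 weeks, with no sorting step described. They were plated directly on hydrogels of 12 kPa coated with 0.05 mg/mL collagen and lysed after 48 h. The libraries are called biological replicates, but neither the labels nor the methods say whether they came from separate animals or how many were pooled, and the p-values therefore rest on a spread among libraries that may be technical only.

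YAP and TAZ are transcriptional coactivators that carry signals from cell shape, actin tension and matrix stiffness to the nucleus. They do not bind DNA themselves and act largely through TEAD factors, which recognize the short element CATTCC. The Hippo kinases MST and LATS phosphorylate YAP and TAZ and hold them in the cytoplasm, so pathway activity is set mainly by the location of the proteins, which RNA counts do not measure. Several TEAD targets, among them Lats2, Amotl2 and Ajuba, encode proteins that act back on the pathway, and in fibroblasts YAP and TAZ are known for their part in matrix stiffening and fibrosis.

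None of the 10 genes met the study's thresholds for a change, which asked for an adjusted p under 0.05 together with a log2 fold change beyond 0.58 in either direction (a fold of 1.49). The count was 0 by edgeR's quasi-likelihood test, against 1.38% of the 17717 genes tested (245 genes). It was 0 by DESeq2, which called 326 of the 13834 genes to which it gave an adjusted p. It was 0 by limma-voom, which called 242 of 17717 genes. The adjusted p alone was under 0.05 for 0 of the 10 genes in edgeR, beside 2.05% of all tested genes. DESeq2, and edgeR with no filter on low counts, put it under 0.05 for Wwtr1, Tead1 and Ajuba. Limma-voom did so for Ajuba alone. The share of all genes at that threshold is not given here for these settings. At an unadjusted p under 0.05 in edgeR 4 of the 10 were higher on col1-ACLP (Wwtr1, Tead1, Amotl2 and Ajuba) and 0 lower, whereas 7.6% of all tested genes were higher and 7.26% lower by that measure (14.9% in all). In Wwtr1, Tead1 and Ajuba all 3 col1-ACLP libraries lay above all 3 col1 libraries, which held for 10.2% of tested genes, and 0 of the 10 genes were separate the other way (20.4% of tested genes were separate in either direction). The log2 fold change was above 0 in 7 of the 10 genes, beside 51.1% of tested genes. The median log2 fold change of the 10 genes was 0.04, beside 0.01 for all tested genes. All fold changes are col1-ACLP over col1, and levels are CPM, the counts of a gene relative to its library's total, scaled by the trimmed mean of M-values.

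**Figure D1:**
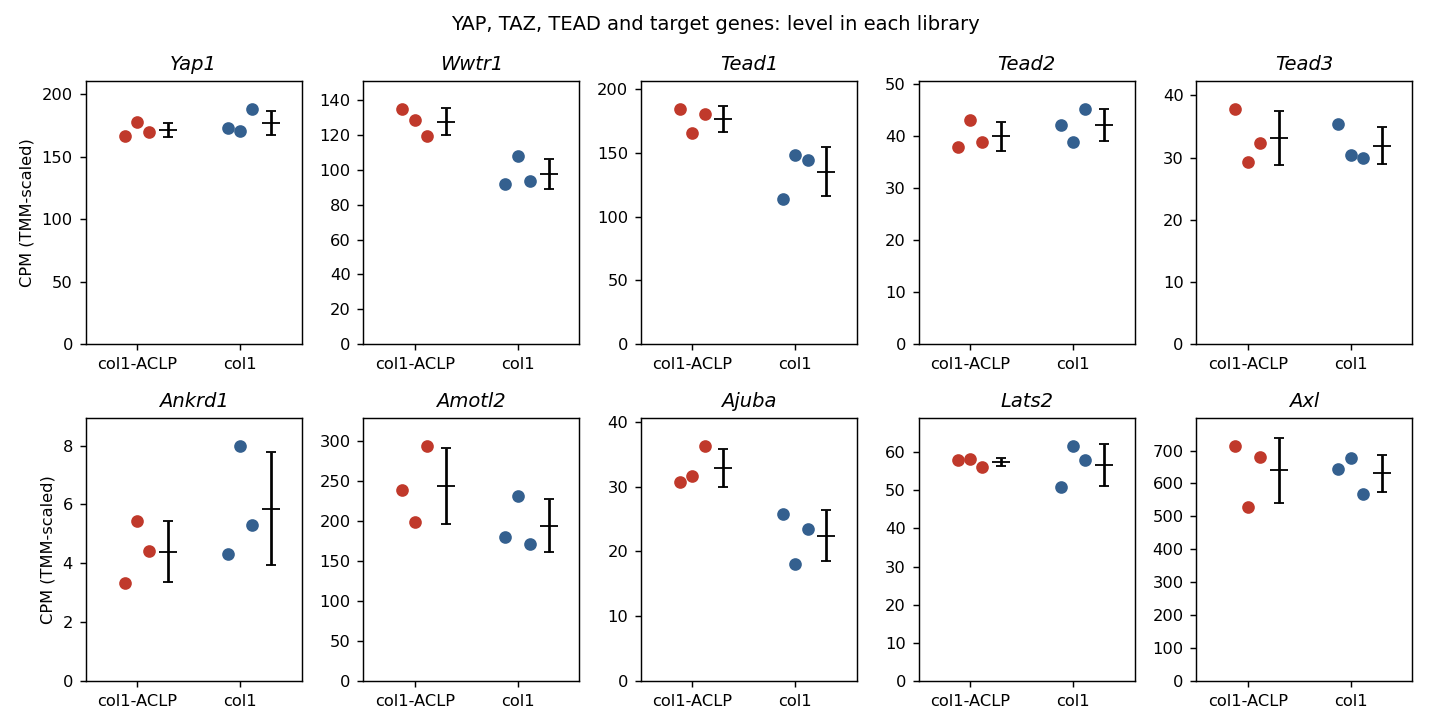
Level of each of the 10 genes in CPM in every library, col1-ACLP (red) left of col1 (blue), each axis from 0; the black bar beside each group is its mean with the SD (n = 3). The groups are separate in Wwtr1, Tead1 and Ajuba and overlap in the other 7 genes.

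Of the coactivator genes, Wwtr1 had the larger difference. Wwtr1, which encodes TAZ (ENSMUSG00000027803, chromosome 3 at 57363070-57483331 of GRCm39), was at 134.8, 128.4 and 119.4 CPM on col1-ACLP, against 92.0, 108 and 93.8 CPM on col1. The lowest col1-ACLP library thus stood above the highest col1 library. The means were 128 ± 7.74 CPM on col1-ACLP and 97.9 ± 8.61 CPM on col1 (SD, n = 3 each), a log2 fold change of 0.38 ± 0.11 (SE, 95% interval 0.16 to 0.60) that did not pass adjustment in edgeR (adjusted p = 0.07587). DESeq2 gave Wwtr1 an adjusted p = 0.01121 at the same size of change, which is under the fold threshold.

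Yap1, which encodes YAP (ENSMUSG00000053110, chromosome 9 at 7932000-8004597), was at 166.4, 177.8 and 169.7 CPM on col1-ACLP, against 172.7, 170.6 and 187.9 CPM on col1. The groups overlapped. The log2 fold change was -0.05 ± 0.10, and its 95% interval of -0.25 to 0.16 lay within the fold threshold on both sides (edgeR adjusted p = 0.8849). As a share of the summed counts per kilobase of both coactivators, Yap1 made up 38.9%, 41.7% and 42.3% on col1-ACLP, against 49.2%, 45.0% and 50.8% on col1. Every col1-ACLP library was below every col1 library, with a difference of -7.36 percentage points (exact permutation test, two-sided, p = 0.1, the smallest that 3 libraries against 3 allow).

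The TEAD genes encode the DNA-binding partners of YAP and TAZ. Tead1 (ENSMUSG00000055320, chromosome 7 at 112278525-112506014) was at 184.2, 165.2 and 180.4 CPM on col1-ACLP, against 113.7, 148.3 and 144.1 CPM on col1. The groups did not overlap, and col1 1 was the lowest of the 6. The log2 fold change was 0.38 ± 0.11 (95% interval 0.14 to 0.62, edgeR adjusted p = 0.09831), or 0.27 with col1 1 left out (adjusted p = 0.2579). DESeq2 gave an adjusted p = 0.02348, under the fold threshold.

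Tead2 (ENSMUSG00000030796, chromosome 7 at 44865177-44883068) was at 38.0, 43.1 and 39.0 CPM on col1-ACLP, against 42.2, 39.0 and 45.2 CPM on col1. Tead3 (ENSMUSG00000002249, chromosome 17 at 28550645-28569791) was at 37.8, 29.3 and 32.3 CPM on col1-ACLP, against 35.3, 30.5 and 29.98 CPM on col1. In both genes the groups overlapped, and the intervals of -0.32 to 0.18 for Tead2 and -0.23 to 0.34 for Tead3 lay within the fold threshold (log2 fold changes -0.07 ± 0.12 and 0.05 ± 0.13). The fourth TEAD gene, Tead4, was low, at 4.69, 4.26 and 3.26 CPM on col1-ACLP, against 5.01, 4.91 and 5.58 CPM on col1. Its groups did not overlap, at a log2 fold change of -0.34 ± 0.24 (edgeR adjusted p = 0.5578). The counts of Tead2 are uncertain in part, because the use of strand in counting is not given in the sources used here. Cd37 on the other strand overlaps Tead2 by 13 bases in the table, and 3.29% of the 31-base words of Tead2 are shared with Cd37. Cd37 holds 26.27% as many counts as Tead2, which is not the share of Tead2 counts in doubt.

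Across the 4 TEAD genes, Tead1 took 47.7%, 45.6% and 48.96% of the summed counts per kilobase on col1-ACLP, against 35.1%, 43.8% and 40.7% on col1. The groups did not overlap, with means of 47.4 ± 1.73% on col1-ACLP and 39.9 ± 4.38% on col1 (SD, n = 3 each, exact permutation p = 0.1, the smallest possible). Tead2 took 30.5 ± 2.94% on col1-ACLP and 35.3 ± 2.33% on col1 (exact permutation p = 0.2). Tead3 took 17.95 ± 1.74% on col1-ACLP and 19.1 ± 2.61% on col1 (exact permutation p = 0.6), and Tead4 took 4.12 ± 0.68% on col1-ACLP and 5.75 ± 0.25% on col1 (exact permutation p = 0.1).

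**Figure D2:**
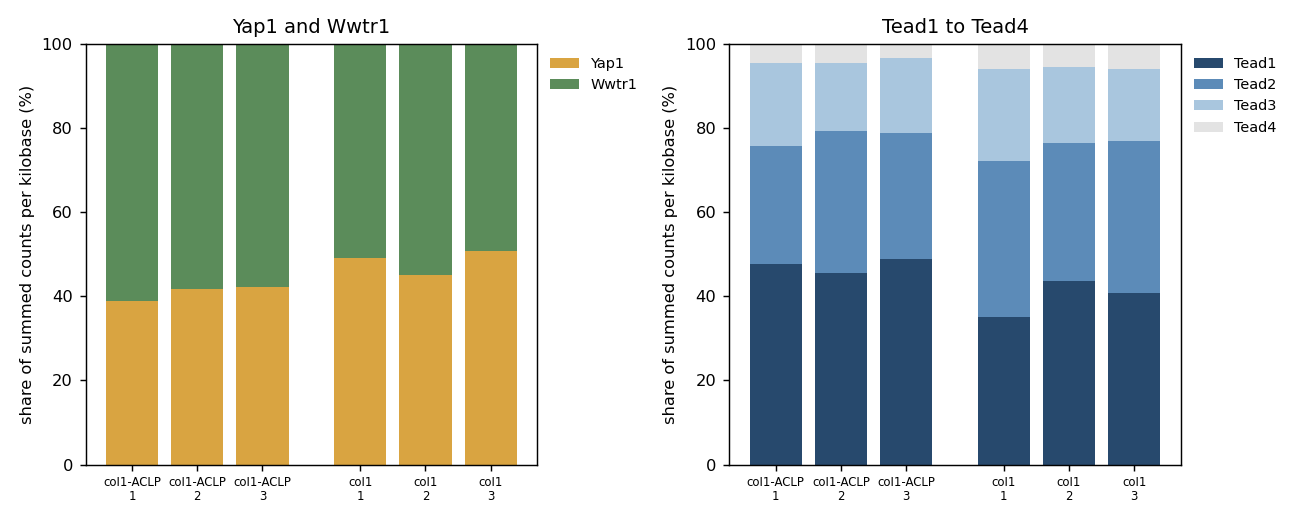
Share of the summed counts per kilobase in each library, for Yap1 and Wwtr1 (left) and for the 4 TEAD genes (right), with the 3 col1-ACLP libraries left of the 3 col1 libraries. Yap1 averaged 40.98% on col1-ACLP and 48.3% on col1, and Tead1 averaged 47.4% on col1-ACLP and 39.9% on col1.

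Promoter sequence was examined for the element that TEAD factors bind. RefSeq windows of 300 bases, from 250 before to 50 after each transcription start, were matched for 9 of the 10 genes, all but Tead1. Both strands were searched by taking CATTCC and its reverse complement GGAATG, which cannot overlap each other. A match was found in 8 of the 9, in all but Tead2, and in each of the 5 genes Ankrd1, Amotl2, Ajuba, Lats2 and Axl. Of all genes in the table, 16.6% had a match in at least 1 window, and 14.7% of all windows held one. Tead3 had 3 windows, Lats2 and Wwtr1 had 2 each, and some genes thus had more than 1 chance of a match. In Lats2 the only match lay after the start, at positions 5 to 10, in 1 of its 2 windows. That RefSeq start is 12265 bases downstream of the start of Lats2 in the count table.

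The 250 bases before the start are shown for Ajuba, Amotl2 and Ankrd1, because these are the target genes with the highest, the next highest and the lowest fold change, and all of them hold the element. They read 5′ to 3′ along each gene, from RefSeq (GRCm38.p6) and placed on GRCm39 by exact match, with capitals marking CATTCC or GGAATG. The Ajuba stretch lies on the minus strand at chr14:54815119-54815368, the Amotl2 stretch on the plus strand at chr9:102594753-102595002 and the Ankrd1 stretch on the minus strand at chr19:36097245-36097494.
Ajuba: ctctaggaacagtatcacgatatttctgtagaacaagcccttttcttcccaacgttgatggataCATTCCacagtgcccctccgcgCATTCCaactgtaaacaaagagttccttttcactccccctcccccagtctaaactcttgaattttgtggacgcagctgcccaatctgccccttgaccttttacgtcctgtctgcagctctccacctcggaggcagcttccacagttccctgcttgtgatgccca
Amotl2: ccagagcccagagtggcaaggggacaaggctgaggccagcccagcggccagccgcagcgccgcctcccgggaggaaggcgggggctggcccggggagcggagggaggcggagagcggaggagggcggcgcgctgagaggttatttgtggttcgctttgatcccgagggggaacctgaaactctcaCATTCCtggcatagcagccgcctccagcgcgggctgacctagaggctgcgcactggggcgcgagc
Ankrd1: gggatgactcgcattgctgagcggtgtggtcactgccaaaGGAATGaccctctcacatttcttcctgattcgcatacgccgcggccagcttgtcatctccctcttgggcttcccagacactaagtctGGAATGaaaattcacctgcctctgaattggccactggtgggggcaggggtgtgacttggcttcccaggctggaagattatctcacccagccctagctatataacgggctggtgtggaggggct
In Ajuba both copies lay upstream, at positions -186 to -181 and -164 to -159 from the start, in the CATTCC orientation. In Amotl2 the copy lay at -65 to -60 in the same orientation, from a RefSeq start 1132 bases downstream of the start of the gene in the count table. In Ankrd1 the 2 copies lay at -210 to -205 and -123 to -118 in the GGAATG orientation, from a start 255 bases downstream of the table's. Of all windows, 1.36% held 2 or more copies. Among the members, Ajuba and Ankrd1 had 2 copies in a window and Tead3 had 3 in 1 of its windows, and their log2 fold changes were 0.55, -0.42 and 0.05. A match is a description of these letters, and binding was not measured.

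Of the 3 members that regulate the pathway (Ajuba, Amotl2 and Lats2), Ajuba had the largest log2 fold change. Ajuba encodes a LIM domain protein that binds LATS kinases at cell junctions under tension and restrains them (ENSMUSG00000022178, chromosome 14 at 54804929-54815015). It was at 30.7, 31.7 and 36.3 CPM on col1-ACLP, against 25.7, 18.0 and 23.5 CPM on col1. All col1-ACLP libraries were above all col1 libraries, with means of 32.9 ± 3.00 CPM on col1-ACLP and 22.4 ± 3.96 CPM on col1 (SD, n = 3 each). The log2 fold change of 0.55 ± 0.15 (95% interval 0.24 to 0.87) had the smallest p of the 10 genes, ranked 454 of the 17717 tested, and missed both thresholds in edgeR (adjusted p = 0.06641). DESeq2 (0.55, adjusted p = 0.01721) passed the p threshold alone. Limma-voom gave 0.58, not above the fold threshold, with an adjusted p = 0.04137. With col1 2, the lowest library, left out the value was 0.41 (adjusted p = 0.2171), and with col1 1 left out it was 0.66 (adjusted p = 0.0566).

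Amotl2 encodes an angiomotin family protein that binds YAP and keeps it out of the nucleus, and it is itself a TEAD target (ENSMUSG00000032531, chromosome 9 at 102593871-102610617). It was at 238.5, 198.6 and 293.8 CPM on col1-ACLP, against 179.6, 231.7 and 170.7 CPM on col1. The groups overlapped, since col1 2 was above col1-ACLP 2. The log2 fold change was 0.33 ± 0.14 (95% interval 0.03 to 0.62, edgeR adjusted p = 0.2736), and it was 0.17 without col1-ACLP 3, the highest library.

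Lats2 encodes a kinase that phosphorylates YAP and TAZ and is induced by them as feedback (ENSMUSG00000021959, chromosome 14 at 57927119-57995845). It was at 57.95, 58.2 and 56.2 CPM on col1-ACLP, against 50.8, 61.7 and 57.9 CPM on col1. The col1-ACLP libraries lay inside the range of the col1 libraries, and the log2 fold change of 0.02 ± 0.11 had an interval of -0.22 to 0.25 (edgeR adjusted p = 0.9719). Lats2 shares 27.14% of its 31-base words with the overlapping gene model Gm49361 on the same strand, which the table lists at 0 counts in all 6 libraries, and its level is uncertain to that extent.

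The targets Ankrd1 and Axl did not pass the test in either direction. Ankrd1, which encodes a cardiac ankyrin repeat protein and is widely used as a readout of YAP and TAZ, had few counts here, 133 to 240 per library on col1-ACLP and 145 to 384 on col1 (ENSMUSG00000024803, chromosome 19 at 36089361-36097499). Its levels were 3.33, 5.44 and 4.43 CPM on col1-ACLP, against 4.30, 7.99 and 5.29 CPM on col1. The groups overlapped, and col1 2 was the highest library. The log2 fold change was -0.42 ± 0.27 with a wide interval of -0.99 to 0.15 (edgeR adjusted p = 0.5165), and -0.13 without col1 2. The interval holds no increase past the fold threshold but holds decreases past it. Ankrd1 shares 18.13% of its 31-base words with an antisense gene model that has 2 counts in all, and its level is uncertain to that extent.

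Axl encodes a receptor tyrosine kinase of the TAM family, which binds the ligand Gas6 (ENSMUSG00000002602, chromosome 7 at 25456698-25488130). It was the most abundant of the 10 genes, at 714.1, 528.3 and 679.1 CPM on col1-ACLP, against 644.7, 677.4 and 569.4 CPM on col1. The groups overlapped, and the lowest of the 6 libraries was col1-ACLP 2, with a log2 fold change of 0.02 ± 0.12 and an interval of -0.22 to 0.27 (edgeR adjusted p = 0.9601). Gas6 was at 127.9, 155.8 and 136.0 CPM on col1-ACLP, against 187.9, 160.6 and 167.5 CPM on col1. All its col1-ACLP libraries were below all its col1 libraries, but the log2 fold change of -0.30 ± 0.11 did not pass adjustment (adjusted p = 0.189). Pros1, which encodes the ligand protein S, was at 345.0 to 421.1 CPM on col1-ACLP, against 395.3 to 440.2 CPM on col1 (-0.10 ± 0.10, adjusted p = 0.7307). The other TAM receptors, Mertk and Tyro3, stood at 11.4 to 17.9 and 11.7 to 15.7 CPM on col1-ACLP, against 13.8 to 19.6 and 13.8 to 17.99 CPM on col1, and Axl made up 95.5 ± 1.32% on col1-ACLP and 95.02 ± 0.53% on col1 of the summed counts per kilobase of the 3 receptors.

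**Figure D3:**
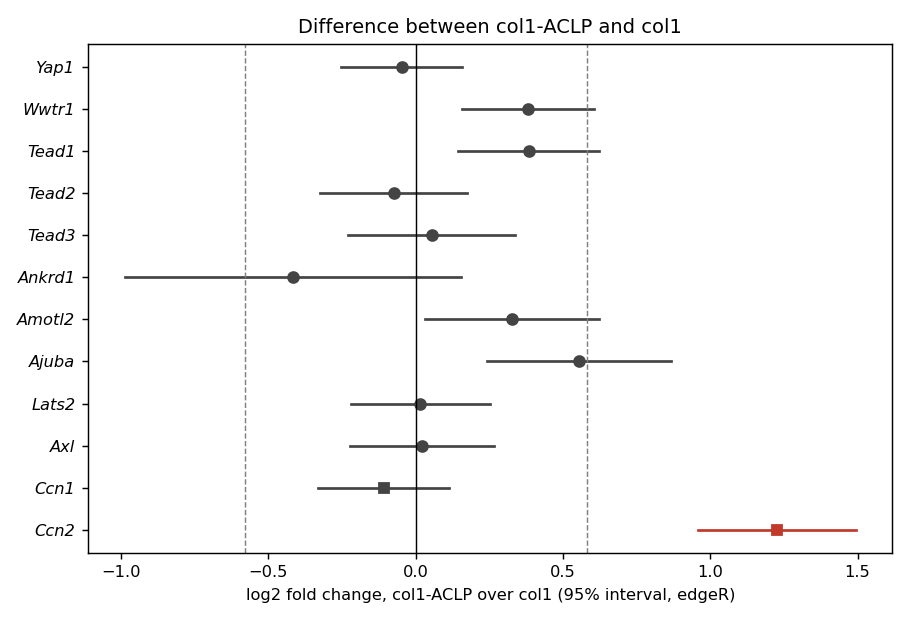
Log2 fold change, col1-ACLP over col1, with its 95% interval from edgeR for the 10 genes (circles) and for the TEAD targets Ccn1 and Ccn2 (squares); dashed lines mark the fold threshold of 0.58 on either side. Ccn2 at 1.23 is the one gene past both thresholds (red), and the intervals of Yap1, Tead2, Tead3, Lats2 and Axl lie between the dashed lines.

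Levels of different genes were compared per kilobase of gene length. On col1-ACLP the order was Axl (127 CPM per kilobase), Amotl2 (38.7), Wwtr1 (26.7), Yap1 (18.5), Tead1 (13.0), Ajuba (9.01), Tead2 (8.36), Lats2 (8.24), Tead3 (4.94) and Ankrd1 (1.52). Neighbours overlapped between libraries only from Ajuba to Tead2 and from Tead2 to Lats2. On col1 the order was Axl (125 CPM per kilobase), Amotl2 (30.8), Wwtr1 (20.5), Yap1 (19.1), Tead1 (9.98), Tead2 (8.80), Lats2 (8.15), Ajuba (6.14), Tead3 (4.76) and Ankrd1 (2.03). There the neighbours Wwtr1 and Yap1, Tead1 and Tead2, Tead2 and Lats2, and Ajuba and Tead3 overlapped. On col1-ACLP every library thus had Wwtr1 above Yap1 per kilobase, whereas on col1 the ranges of Wwtr1 (19.3 to 22.6 CPM per kilobase) and Yap1 (18.4 to 20.3 CPM per kilobase) overlapped. The whole order rests on the deposited gene lengths. In CPM, not divided by length, Tead1 (mean 177) stood above Yap1 (171) and Wwtr1 (128) on col1-ACLP. Of Yap1 and Wwtr1, Yap1 was then the higher. It had a mean of 57.34% of the counts of the pair on col1-ACLP and 64.41% on col1. The GENCODE vM39 transcripts of Wwtr1 hold 11891 distinct 31-base words, against a deposited length of 4779 bases. For Yap1 these were 9585 words and 9257 bases.

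Other genes of the pathway were described from lists of known members. Of 18 further TEAD targets, all tested, Ccn2 was raised and 0 were lowered, beside 0.66% and 0.722% of all tested genes. The paper had already named Ccn2 as up-regulated in these cells, and the lists were chosen with earlier results known. The rise of Ccn2 is therefore no independent finding beside those shares. The matricellular gene Ccn2 was at 94.6, 131.4 and 111.8 CPM on col1-ACLP, against 47.3, 52.4 and 44.6 CPM on col1. The groups were far apart, at a log2 fold change of 1.23 ± 0.13 (edgeR adjusted p = 4.1e-05). The related gene Ccn1 was at 626.2, 815.3 and 764.7 CPM on col1-ACLP, against 792.5, 831.9 and 754.8 CPM on col1, and its interval of -0.33 to 0.11 lay within the fold threshold. The median of the 18 was 0.19, 13 were above 0, and in 6 the col1-ACLP libraries were all above the col1 libraries (10.2% of tested genes were). Nt5e, the ectonucleotidase CD73 (0.39 ± 0.13, adjusted p = 0.1372), and Dock5, an activator of Rac (0.45 ± 0.15, adjusted p = 0.1434), had the smallest p after Ccn2 and did not pass adjustment.

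Of 13 genes for Hippo kinases and their partners 0 were raised or lowered by edgeR, DESeq2 or limma-voom, 3 were higher at an unadjusted p under 0.05 in edgeR (7.6% of tested genes were), and the median was 0.08. These were Sav1, the scaffold of the MST kinases (0.55 ± 0.18, adjusted p = 0.1328), the kinase gene Lats1 (0.27 ± 0.12, adjusted p = 0.3329) and Stk38, an NDR kinase gene (0.22 ± 0.11, adjusted p = 0.3348). Sav1 would pass both thresholds without col1-ACLP 2 (0.71, adjusted p = 0.04877), and it overlaps genes that hold up to 10.44% as many counts. Of 17 genes for scaffolds and TEAD cofactors, 15 were tested, 0 were raised or lowered by any of the 3 tools, 4 were higher at an unadjusted p under 0.05 in edgeR (7.6% of tested genes were), and the median was 0.13. The groups were separate with col1-ACLP higher in 4 of the 15 (Vgll3, Amotl1, Wwc2 and Dchs1) and lower in 1 (Tead4), beside 10.2% of tested genes in each direction. Vgll3, a cofactor that competes with YAP for TEAD, was at 213.7, 190.5 and 240.0 CPM on col1-ACLP, against 157.9, 187.6 and 147.5 CPM on col1. The groups came close without overlapping (0.39 ± 0.12, adjusted p = 0.1037). The protocadherin Dchs1 (0.33 ± 0.16, adjusted p = 0.3285) and the KIBRA relative Wwc2 (0.22 ± 0.11, adjusted p = 0.3349) were next, and the angiomotin genes Amotl1 (0.13 ± 0.10) and Amot (0.02 ± 0.22) did not pass the test. Vgll1 and Vgll2 had 0 counts in all 6 libraries, which allows up to 0.0624 to 0.0889 CPM at 3 counts per library, a limit that covers counting error only. Ankrd2, a relative of Ankrd1, reached at most 0.492 CPM and was not tested, and Ankrd23 reached at most 0.566 CPM (1.33 ± 0.99, adjusted p = 0.5909).

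**Figure D4:**
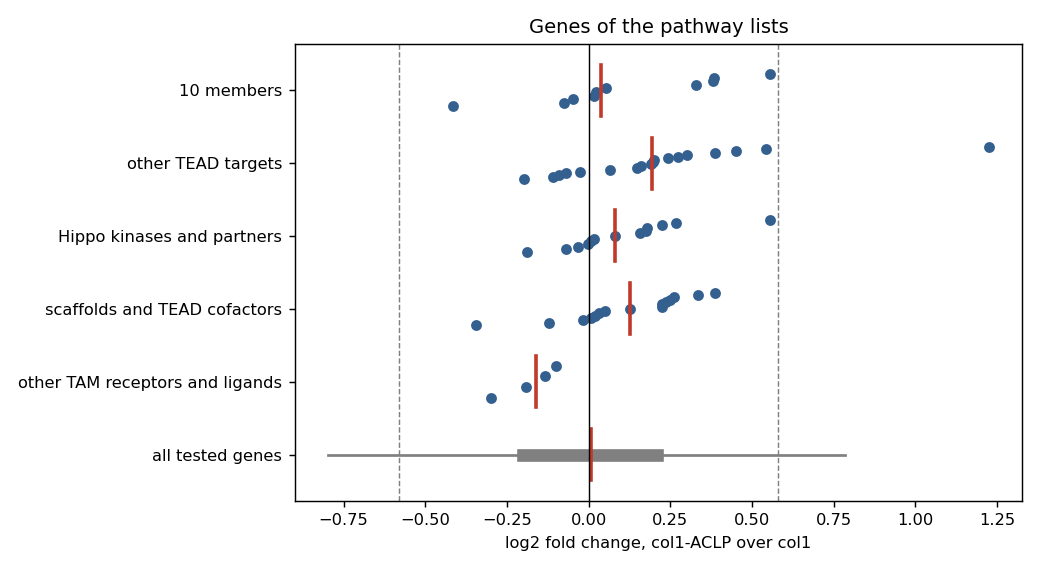
Log2 fold change, col1-ACLP over col1, of every tested gene in each list drawn (points) with the list's median (red line). The relatives of Ankrd1 are not drawn, of which Ankrd23 was tested (1.33, edgeR adjusted p = 0.5909). The bottom row gives all 17717 tested genes as the 25th to 75th (thick) and 5th to 95th percentiles (thin). Medians are 0.04 for the 10 genes, 0.19 for other TEAD targets, 0.08 for Hippo kinases and 0.13 for scaffolds and cofactors. Among the genes drawn, Ccn2 stands alone past the dashed fold threshold.

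Ajuba, the member with the smallest p, was compared with all tested genes by the root mean square difference of log2 levels around each gene's mean over the 6 libraries. The 5 nearest genes were Bcat1 (0.0798), Apobr (0.0839), Sod3 (0.088), Gm9512 (0.102) and Grhpr (0.107). Bcat1, a cytosolic branched-chain aminotransferase, was at 129 CPM on col1-ACLP and 83.3 CPM on col1 (log2 fold change 0.63, adjusted p = 0.006718). Sod3, the extracellular superoxide dismutase, was at 776 CPM on col1-ACLP and 567 CPM on col1 (0.45, adjusted p = 0.02716), under the fold threshold. Apobr (0.40, adjusted p = 0.3155), Gm9512 (0.70, adjusted p = 0.7059) and Grhpr (0.42, adjusted p = 0.126) did not pass adjustment in edgeR. The nearness describes these 6 libraries. All 5 genes are higher on col1-ACLP, which follows from picking them for closeness to Ajuba.

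The libraries held 33343651 to 47142754 counts, and mitochondrial genes took 3.02 to 6.14% of counts on col1-ACLP and 2.91 to 4.27% on col1. The highest value was in col1-ACLP 2, and without that library the log2 fold changes were 0.38 for Wwtr1, 0.43 for Tead1, 0.58 for Ajuba, 0.46 for Amotl2, -0.60 for Ankrd1 and 0.14 for Axl, none of them past both thresholds. The 8 stromal markers were abundant in both groups and summed to 17780 to 26210 CPM on col1-ACLP and 16450 to 19210 CPM on col1. Most of these sums came from 2 collagen genes. Col1a1 had means of 8690 CPM on col1-ACLP and 5022 CPM on col1. Col3a1 had means of 9069 CPM on col1-ACLP and 6886 CPM on col1 (0.40, edgeR adjusted p = 0.1593). Pdgfra was at 895 ± 133 CPM on col1-ACLP and 983 ± 41.7 CPM on col1. Col1a1 was raised and the progenitor markers Ly6a and Pi16 lowered, and of the 8 markers 3 had a log2 fold change above 0 and 5 below. Dcn was lower without overlap (-0.57, edgeR adjusted p = 0.006678), under the fold threshold. Pdgfrb was higher without overlap (0.29, edgeR adjusted p = 0.1935). In bulk RNA fewer cells of a type and less RNA per cell cannot be told apart. The 10 macrophage markers, of which 0 were raised or lowered, summed to 599 to 685 CPM on col1-ACLP and 598 to 734 CPM on col1. The 6 mesothelial markers, with Upk3b lowered, summed to 198 to 217 CPM on col1-ACLP and 164 to 246 CPM on col1. The 4 mast cell markers, 3 of them tested and all 3 lowered, summed to 2.47 to 3.89 CPM on col1-ACLP and 9.11 to 14.9 CPM on col1. The 6 endothelial markers (0 raised or lowered) summed to 664 to 803 CPM on col1-ACLP and 737 to 861 CPM on col1. The 6 mural cell markers (0 raised or lowered) summed to 333 to 433 CPM on col1-ACLP and 321 to 349 CPM on col1. Single markers in these lists differed at an unadjusted p under 0.05 in edgeR (7.6% of tested genes were higher and 7.26% lower). The macrophage markers Cd14 and Mrc1, the mesothelial markers Msln and Upk3b and the endothelial marker Cldn5 were lower. The mural markers Kcnj8 and Abcc9 were higher. Both were highest in col1-ACLP 2, Kcnj8 at 37.5 CPM (24.5 and 25.4 in col1-ACLP 1 and 3) and Abcc9 at 55.1 CPM (37.9 and 31.4). The mural sum was 432.7 CPM in col1-ACLP 2, and 332.8 and 336.5 CPM in col1-ACLP 1 and 3. The 4 epithelial markers summed to 106 to 137 CPM on col1-ACLP and 156 to 164 CPM on col1, without overlap. None of these 4 passed both thresholds by edgeR, but all 4 were lower at an unadjusted p under 0.05, and Krt8, named after its values were seen, had a log2 fold change of -0.53 (edgeR adjusted p = 0.0233). The 5 proliferation markers, 0 of them raised or lowered, summed to 512 to 556 CPM on col1-ACLP and 456 to 503 CPM on col1. Mki67 and Top2a were higher and Birc5 lower on col1-ACLP without overlap between the groups, each short of an unadjusted p of 0.05. The dendritic, adipocyte and lymphocyte markers summed to 58.7 to 62.6, 10.3 to 14.3 and 0.301 to 0.725 CPM on col1-ACLP, against 61.7 to 84.0, 12.4 to 13.6 and 0.385 to 1.29 CPM on col1, with 0 raised or lowered. Of the adipocyte markers 1 was higher and 1 lower at an unadjusted p under 0.05. The part of these cells and of proliferation in the levels of the 10 genes was not tested.

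**Figure D5:**
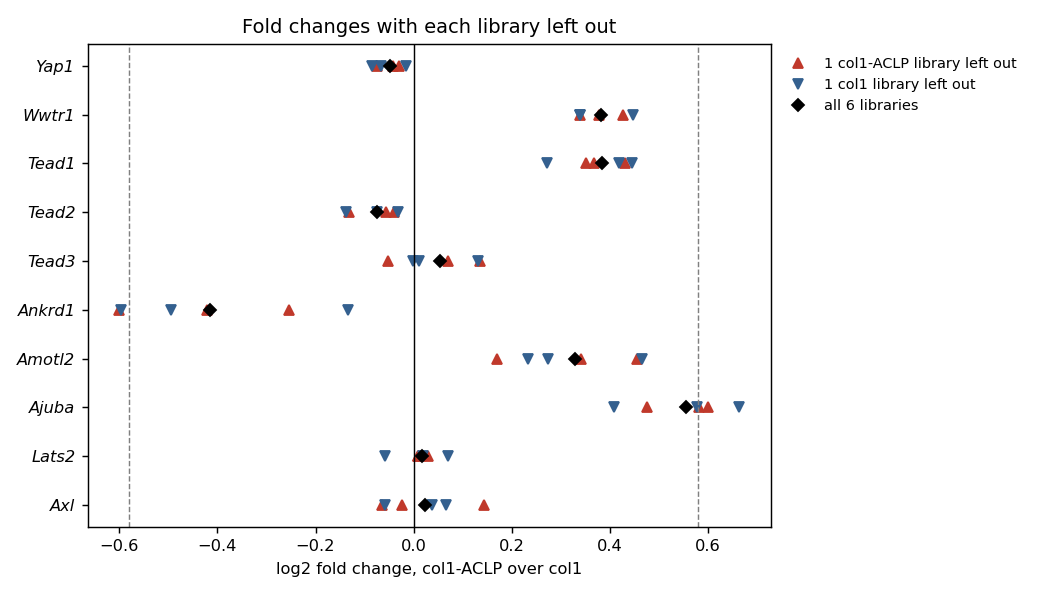
Log2 fold change, col1-ACLP over col1, of the 10 genes with all 6 libraries (black) and with 1 col1-ACLP library (red) or 1 col1 library (blue) left out; dashed lines mark the fold threshold of 0.58. Wwtr1 stays between 0.34 and 0.45 and Tead1 between 0.27 and 0.44, whereas Ankrd1 runs from -0.60 to -0.13.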

How the data were processed

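The values deposited by the authors are whole-number read counts for each gene, not normalized, in 1 table made from polyA RNA sequencing with reads mapped by HISAT2. The study's methods name GRCm39 and the submitters' processing notes mm10. Of the 56748 identifiers, 56017 were in GENCODE vM39 (GRCm39), 92.01% of them with a start within 1000 bases, and the members differed by at most 199 bases, so the table's coordinates are read as GRCm39. The counting program and its use of strand and of reads with several matches were not given in the sources used here. Columns were assigned from the labels, and 0 other per-sample columns were present.

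Genes were filtered by filterByExpr (minimum count 10, minimum total 15), scaled by TMM and tested with edgeR 4.0.16 (quasi-likelihood, two-sided, group as the only factor) in R 4.3.3, with Benjamini-Hochberg adjustment over all 17717 tested genes. Thresholds were those of the study, whose own tool, DESeq2 (here 1.42.0), and limma-voom (limma 3.58.1) were alternatives. The fits were tested on simulated data. Shares used the deposited gene length in bases (other than the counts, the one column used). Named genes were all members and, in each pathway list (not the cell type markers), those past an adjusted p of 0.05, the 3 with the smallest p and relatives of members, plus the 5 genes nearest in profile to the member of smallest p. Members and lists were chosen with earlier results of these data known. Within a group, pairs of libraries differed far beyond sampling noise (chi-square divided by its degrees of freedom, 22.31 to 61.43), so each library counted as 1.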

Additional observations from a re-analysis of the deposited data

How the results depend on the processing

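The count of 0 members called was the same under all 12 alternatives: RLE or upper-quartile scaling, no filter on low counts, DESeq2, limma-voom, a replicate block and each library left out in turn. No pairing of libraries by replicate number was seen over all tested genes. Correlations of same-numbered deviations were -0.018, -0.01 and -0.029, and those of differently numbered ones -0.023 to 0.045. A pairing carried by few genes could be missed this way. With the replicate block 0 members, 1 further target, 0 kinase genes, 0 scaffold genes and 194 of all genes were called, against 245 without it. Without the filter 389 of all genes were called. Leaving out 1 library gave 148 to 289 genes, lowest without col1-ACLP 3, and 151 without col1-ACLP 1, 157 without col1 1 and 163 without col1 3. Of the kinase genes 0 to 1 were called, the 1 being Sav1 without col1-ACLP 2. Signs were not stable for members near 0: with upper-quartile scaling Lats2 was at -0.005 and Axl at -0.001, and with 1 library left out Tead3 ran from -0.053 to 0.136, Lats2 from -0.059 to 0.07 and Axl from -0.065 to 0.144. The cause was not tested. Wwtr1, Tead1, Amotl2 and Ajuba stayed above 0 and Yap1, Tead2 and Ankrd1 below 0 under all 12. The adjusted p ran from 0.01121 to 0.2681 for Wwtr1, 0.02348 to 0.2798 for Tead1 and 0.009892 to 0.2646 for Ajuba. The lowest Ajuba value came from edgeR with no filter. In that fit the unadjusted edgeR p of Ccn2 was 1.1e-24, against 3e-08 with the filter, at a log2 fold change of 1.23 in both. The reason for this gap was not tested. The Yap1 share differed by -9.04 to -6.11 points and the Tead1 share by 5.18 to 9.5 points with 1 library left out. Without division by length the Yap1 share differed by -7.07 points and the Tead1 share by 6.69 points. Ankrd1 had the fewest counts of the members, 133 to 384 per library, and the widest interval, and the parts of depth and of spread between libraries in it were not tested.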

Other observations

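Shares within other gene families, computed after the data were seen, are given as values. Ajuba made up 18.6%, 17.8% and 21.5% of the summed counts per kilobase of Ajuba, Limd1 and Wtip, the 3 genes of its LIM protein family, on col1-ACLP, against 14.5%, 11.8% and 14.1% on col1. The groups did not overlap (exact permutation test, two-sided, p = 0.1, the smallest possible), while Limd1 was at 94.1 to 103 CPM on col1-ACLP and 92.9 to 99.4 CPM on col1. Lats2 made up 41.5%, 43.9% and 44.8% of Lats2 and Lats1 on col1-ACLP, against 49.6%, 46.9% and 46.8% on col1 (exact permutation p = 0.1), with the level of Lats2 uncertain as given above. The log2 fold change of Lats2 itself was 0.02. Lats1 was at 72.55 to 85.68 CPM on col1-ACLP and 54.01 to 73.15 CPM on col1. Amotl2 made up 67.2 ± 4.16% of the 3 angiomotin genes on col1-ACLP and 64.1 ± 4.53% on col1 (SD, n = 3 each, exact permutation p = 0.4).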
